A study of Mus musculus with 16 samples.

Results

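The genes P2ry12, Gpr34, Cx3cr1, Csf1r, Siglech, Selplg, Tmem119, Sall1 and Olfml3 form a set of 9 homeostatic microglia genes. They are 9 of the 55487 genes listed in the deposited count table, of which 41193 had at least 1 count. Microglia are the resident macrophages of the brain and spinal cord. In undisturbed tissue they survey their surroundings with motile processes, and they keep a group of receptors, surface proteins and regulators at high levels that other macrophages largely lack. Transcripts of this group are widely used to tell resting microglia from activated microglia and from macrophages that enter from the blood.

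The cells were isolated from cord around a lesion of the dorsal columns, with actinomycin D present while the tissue was dissociated, in mice aged 8 to 10 weeks, with 1 library of a 10x Genomics Chromium 3′ assay per mouse. Control mice were Ryk+/+ with GFAPcreERT2 (called WT here), and conditional knockout mice were Rykfl/fl with GFAPcreERT2 (called cKO), so that both genotypes carried the tamoxifen-inducible Cre and received tamoxifen. Ryk is a receptor for Wnt proteins, and the GFAP promoter directs its loss to astrocytes, not to microglia. Each genotype was taken uninjured (labelled sham) or 1 d, 7 d or 14 d post lesion, 2 mice to a condition, so that 16 mice were sequenced. The 18203 cells of the deposited table had been placed by the authors in 17 clusters, and the mice held 266 to 9008729 unique molecular identifiers (UMIs), each of which stands for 1 captured RNA molecule. Levels are given as UMIs of the gene per 1000000 UMIs of the cells in question (CPM), summed over the cells of a mouse.

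The authors named Clusters 6 and 10 microglial and Cluster 12 immune, with 1316, 813 and 288 cells. Clusters 6 and 10 together made up 11.7% of the cells and 14.9% of the UMIs. Their names were checked against 11 identity markers of microglia outside the set, among them C1qa and Ctss, whose mean levels summed to 30224, 28069 and 7366 CPM in Clusters 6, 10 and 12. Of these 11 markers, 5 were highest in Cluster 6, 4 in Cluster 10 and 2 in myeloid Cluster 16. A list of 16 markers of border-associated and monocyte-derived macrophages summed to 762, 4192 and 24814 CPM in Clusters 6, 10 and 12, and 13 of the 16 were highest in Cluster 12, 2 in Cluster 16 and 1 in fibroblast Cluster 14. The 22 damage-associated microglia genes, which microglia raise around damaged tissue, summed to 21440.4, 66298 and 31367 CPM in Clusters 6, 10 and 12.

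Several libraries stood apart. The second WT mouse at 1 d had 1 cell in all, the first uninjured cKO mouse had 6 cells in Clusters 6 and 10, and both were left out of comparisons between conditions, which left 14 mice with 38 to 576 cells and 72147 to 1615112 UMIs in these clusters. The first replicates of WT and cKO at 1 d and at 7 d were shallow, with medians of 442, 505, 454 and 629 UMIs per cell in Clusters 6 and 10, against 1773 to 11636 UMIs in the other 10 tested mice. For 6 mice, all of them replicate 2, the names of the cells carried another condition than the sample title and the cell table. Comparisons follow the titles, and were repeated with the conditions of the names and without these mice. Replicate 2 of the uninjured mice, in WT and in cKO, is among the 6. Libraries shared 166 cell barcodes, which covered 432 cells, 57 of them in Clusters 6 and 10.

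The receptors come first. P2ry12 (ENSMUSG00000036353.13, chr3:59216272-59262871, minus strand) encodes the purinergic receptor by which microglia sense ADP and steer their processes to sites of damage. Gpr34 (ENSMUSG00000040229.11, chrX:13632089-13640858, plus strand) encodes a receptor for lysophosphatidylserine. Cx3cr1 (ENSMUSG00000052336.7, chr9:119901616-120069879, minus strand) encodes the receptor for the neuronal chemokine fractalkine, and Csf1r (ENSMUSG00000024621.16, chr18:61100598-61132149, plus strand) encodes the receptor for Csf1 and Il34, on which microglia depend for survival.

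Siglech (ENSMUSG00000051504.18, chr7:55768178-55778925, plus strand) encodes a sialic acid-binding lectin that is also known from plasmacytoid dendritic cells. Selplg (ENSMUSG00000048163.13, chr5:113818536-113832644, minus strand) encodes the selectin ligand PSGL-1, which leukocytes of the blood also carry. Tmem119 (ENSMUSG00000054675.5, chr5:113793729-113800516, minus strand) encodes a membrane protein used as a marker of microglia. Sall1 (ENSMUSG00000031665.7, chr8:89027235-89044162, minus strand) encodes a zinc finger transcription factor that maintains microglial identity, and Olfml3 (ENSMUSG00000027848.12, chr3:103722222-103738001, minus strand) encodes a secreted olfactomedin-like protein. Positions are those of whole genes, introns included, on GRCm38, which is the mm10 build that the authors counted on.

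All 9 genes had their highest mean in Cluster 6 and the next in Cluster 10, a description without a test because the clusters were made from these same cells. P2ry12 stood at 1411 ± 515 CPM in Cluster 6 and at 286 ± 244 CPM in Cluster 10 (mean ± SD over 14 mice), and reached 54.7 ± 33.6 CPM in Cluster 12, the highest of the other 15 clusters (10 mice in Cluster 12). Gpr34 had means of 764 ± 304, 331 ± 203 and 30.8 ± 30.5 CPM in Clusters 6, 10 and 12. Cx3cr1 had 3826 ± 867, 1761 ± 895 and 279 ± 164 CPM in the same clusters. The range over mice of Cx3cr1 in Cluster 10 lay wholly above that in Cluster 12, whereas the ranges of P2ry12 and Gpr34 in Clusters 10 and 12 overlapped. Csf1r, which many macrophages express, had 2587 ± 463, 1366 ± 498 and 439 ± 278 CPM there, with 337 ± 413 CPM in the myeloid Cluster 16 (5 mice).

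Among the surface proteins, Siglech had 894 ± 325, 210.2 ± 155 and 69.9 ± 129 CPM in Clusters 6, 10 and 12. In Cluster 12 its level was 416 CPM in cKO 7 d replicate 2, mainly from 2 cells, and 0 to 127 CPM in the other mice. Tmem119 had 717 ± 174 and 209 ± 193 CPM in Clusters 6 and 10, and the next were the fibroblasts of Cluster 14 with 64.9 ± 60.2 CPM (9 mice). Selplg had 1407 ± 382 and 488 ± 384 CPM in Clusters 6 and 10, and 433 ± 289 CPM in myeloid Cluster 16, a gap far below the SD of either cluster. For each of the 9 genes the ranges over mice of Clusters 6 and 10 also overlapped, so that their order rests on comparisons within mice.

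Sall1 was spread more widely than the other 8 genes. It had 249 ± 95.2 CPM in Cluster 6 and 81.0 ± 55.5 CPM in Cluster 10, where 3 of 14 mice had none. Cluster 13, labelled Unk in the deposited cell table, followed with 73.3 ± 31.1 CPM (10 mice), and the oligodendrocyte Cluster 8 and the astrocyte Cluster 7 with 53.2 ± 33.8 and 41.0 ± 28.4 CPM. Neighbours from Cluster 10 downwards did not differ beyond their spread. In Cluster 12 it was at 0 in all 10 mice. Olfml3 had 878 ± 187 and 442 ± 132 CPM in Clusters 6 and 10 and came next in fibroblast Cluster 14, with 134 ± 83.1 CPM.

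**Figure D1:**
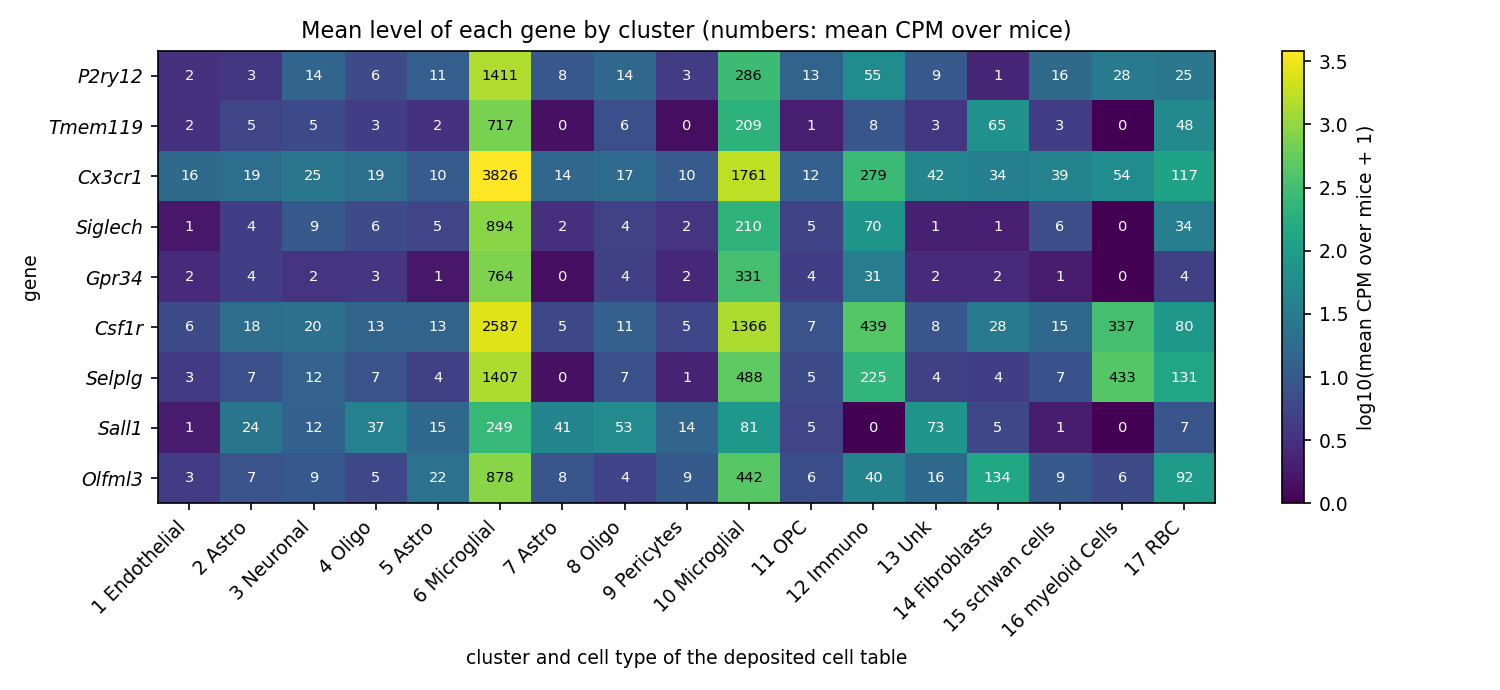
Mean level of the 9 genes (vertical axis) in each of the 17 clusters (horizontal axis, with the names of the cell table), as CPM averaged over mice with at least 10 cells in the cluster. Colour gives the log10 of the mean plus 1 and the printed number is the mean, with Clusters 6 and 10 the highest pair for every gene and Sall1 the most spread over other clusters.

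Clusters 6 and 10 held 89.1% or more of the captured molecules of 8 of the genes. They contained 96.2% of all Gpr34 UMIs, 95.2% of those of Cx3cr1, 94.5% of P2ry12, 93.8% of Csf1r, 93.7% of Siglech, 91.8% of Tmem119, 90.6% of Selplg and 89.1% of Olfml3. For Sall1 the share was 64.0%, and oligodendrocyte Clusters 4 and 8 held 7.21% and 6.29% of its UMIs, astrocyte Cluster 7 held 5.96% and neurons 5.60%. Fibroblasts of Cluster 14 held 4.58% of the Olfml3 UMIs and 3.75% of those of Tmem119. Cluster 12 held 3.19% of the Selplg UMIs and 0.605% of those of P2ry12. These shares are of UMIs pooled over mice of unequal depth. As means over mice, Clusters 6 and 10 held 96.6% for Gpr34, 94.5% for Siglech, 94.0% for Cx3cr1 and 93.0% for Tmem119. The means were 92.5% for P2ry12, 91.9% for Csf1r, 89.8% for Selplg, 88.5% for Olfml3 and 60.7% for Sall1.

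Within mice, Cluster 10 lay below Cluster 6 for P2ry12, Siglech, Tmem119, Selplg, Gpr34 and Olfml3 in 14 of 14 mice, and for Sall1, Cx3cr1 and Csf1r in 13 of 14. The log2 ratio of the levels, each raised by 50 CPM, had a median of -2.41 for P2ry12, with a range over mice from -3.29 to -1.11. It was -1.96 for Siglech, -1.81 for Tmem119, -1.69 for Selplg, -1.29 for Sall1 and -1.22 for Gpr34. The smallest medians from summed UMIs were those of Cx3cr1, Csf1r and Olfml3, at -1.12, -0.93 and -0.90, with SDs over mice of 0.58, 0.42 and 0.51. From means of single cells Cx3cr1 had -1.49, a larger fall than Gpr34 at -1.29 and Sall1 at -1.25. The microglia of Cluster 10 thus had P2ry12 at a small part of the Cluster 6 level, and Csf1r and Olfml3 at a larger one, in the same mice.

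**Figure D2:**
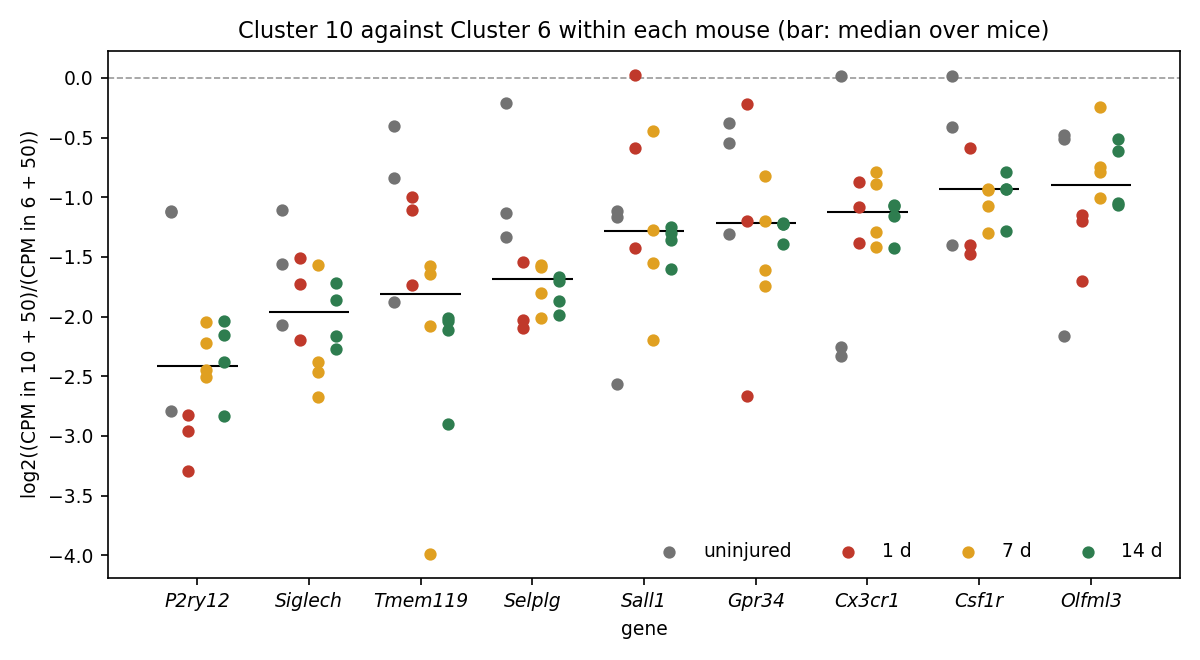
Log2 ratio of the level in Cluster 10 to that in Cluster 6 (vertical axis, 50 CPM added to both) for each of the 9 genes (horizontal axis), with 1 point per mouse, 14 mice, coloured by time point, and a bar at the median. Medians run from -2.41 for P2ry12 to -0.90 for Olfml3, and nearly all points lie below 0.

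Single cells showed the same order at equal depth. Cells were thinned to 1000 UMIs, which kept 578 cells of Cluster 6, 470 of Cluster 10 and 145 of Cluster 12 and left out 738, 343 and 143 shallower cells. A cell of Cluster 6 then had a UMI of 5.52 of the 9 genes on average (SD 1.69), a cell of Cluster 10 had 2.78 (SD 1.75) and a cell of Cluster 12 had 0.703 (SD 0.85). Oligodendrocytes of Cluster 4, in which Sall1 had the highest level of the 9 (37.1 CPM), had 0.164 in 972 cells. Without thinning the averages were 7.90, 4.98, 1.77 and 0.393, at median depths of 5274, 2507, 4564 and 2106 UMIs. P2ry12 was seen in 67.0% of thinned cells of Cluster 6, 23.0% of Cluster 10, 2.76% of Cluster 12 and 1.65% of Cluster 4. Csf1r was seen in 88.9%, 64.5%, 26.2% and 2.98% of the same cells.

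Injury was compared with the uninjured state in Clusters 6 and 10 combined, as the mean over both genotypes of the difference at each time point, with 9268 genes tested and all 9 members among them. Values per mouse are given in the order WT replicate 1, WT replicate 2 and cKO replicate 2 for uninjured mice, WT replicate 1 and cKO replicates 1 and 2 for 1 d, and WT replicates 1 and 2 followed by cKO replicates 1 and 2 for 7 d and 14 d. The 3 comparisons share the uninjured mice. A gene is said to have passed the test at an adjusted p below 0.05 in edgeR. A group with a single mouse took its spread from all groups in the fit.

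At 1 d, P2ry12 and Gpr34 fell. P2ry12 stood at 1820.4, 1525 and 1795 CPM in the uninjured mice and at 568, 574 and 424 CPM at 1 d, which is 27.9% of the uninjured level (log2 fold change -1.84, SE 0.36, adjusted p = 0.0217). The groups did not overlap, and every mouse at 1 d lay below 600 CPM. Gpr34 stood at 737, 1052 and 1289 CPM in uninjured mice and at 360.4, 318 and 322 CPM at 1 d, or 29.0% (log2 fold change -1.79, SE 0.35, adjusted p = 0.0217). Its groups did not overlap either, and the mice at 1 d lay closer together than the uninjured mice. These were 2 of 9 members called, whereas 42 of all 9268 genes were called (0.453%), 33 of them up and 9 down.

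Selplg had 1917, 1539.9 and 1669 CPM in uninjured mice and 721, 636 and 721 CPM at 1 d, a log2 fold change of -1.40 (SE 0.35) that did not pass the test (adjusted p = 0.0678). Selplg passed it without WT 14 d replicate 1 (adjusted p = 0.0445) or replicate 2 (0.0443), and its adjusted p ran from 0.00272 to 0.669 over 26 alternatives. The next were Sall1, Siglech and Tmem119, with log2 fold changes of -1.48, -1.27 and -1.23 and adjusted p from 0.117 to 0.179. Sall1 had 195 to 291 CPM in uninjured mice and 55.4 to 185 CPM at 1 d, the lowest of them from 4 UMIs. Siglech ranged from 541 to 1397 CPM and then from 257 to 441 CPM, and Tmem119 from 598 to 1017 CPM and then from 236 to 482 CPM. All 3 were lower in each mouse at 1 d than in any uninjured mouse. Their log2 fold changes depended on single mice. Without WT 1 d replicate 1 they were -0.60, -0.72 and -0.35, and without uninjured cKO replicate 2 they were -2.34 for Sall1 and -2.10 for Tmem119. Between genotypes, the log2 fold changes of Tmem119 at 1 d lay 1.73 apart (unadjusted p = 0.0261), which did not pass the test (adjusted p = 0.827).

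Smaller differences were measured for the receptors Cx3cr1 and Csf1r, with log2 fold changes of -0.69 and -0.53 (adjusted p = 0.419 and 0.517), and -0.45 for Cx3cr1 without WT 1 d replicate 1. Cx3cr1 had 2937 to 4087 CPM in uninjured mice and 1765 to 2779 CPM at 1 d. Csf1r had 1998 to 2581 CPM and then 1079.6 to 1959 CPM. Olfml3 alone overlapped, with 543 to 826 CPM in uninjured mice and 554 to 984 CPM at 1 d, and its log2 fold change of -0.020 (SE 0.35) turned positive with another scaling, at 0.0053. Counted over the set, 8 of the 9 genes had every mouse at 1 d below every uninjured mouse, as had 7.34% of the genes tested. At an unadjusted p below 0.05 stood 6 of the 9, beside 1277 of all 9268 genes. DESeq2 called 5, namely P2ry12, Gpr34, Selplg, Tmem119 and Siglech, beside 103 of all genes. The median log2 fold change was -1.27 for the 9 genes and 0.02 for all genes.

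The fall at 1 d was called or not depending on single mice. P2ry12 and Gpr34 each passed the test in 8 of 14 fits that left out 1 mouse. Without WT 1 d replicate 1, so that cKO mice alone were compared, the adjusted p was 0.488 for P2ry12 and 0.333 for Gpr34, and without uninjured cKO replicate 2, so that WT mice alone were compared, it was 0.268 and 0.338. Without cKO 1 d replicate 1 it was 0.0661 and 0.0729, without cKO 1 d replicate 2 it was 0.0955 and 0.0732, and without cKO 14 d replicate 2 it was 0.0512 for both. P2ry12 had 0.0511 without uninjured WT replicate 1, and Gpr34 had 0.0510 without uninjured WT replicate 2. The log2 fold change lay between -1.90 and -1.76 for P2ry12 and between -2.03 and -1.52 for Gpr34 over these 14 fits. With the conditions of the cell names it was -1.52 for P2ry12 (adjusted p = 0.190) and -1.27 for Gpr34 (adjusted p = 0.264). Without the mice whose names conflict it was -1.79 and -1.14. That fit compared only WT replicate 1 at 1 d with uninjured WT replicate 1, so it cannot show the change over both genotypes. Over all 26 alternatives both genes stayed negative and passed the test in 14, with log2 fold changes from -2.20 to -1.48 and adjusted p from 3.12e-05 to 0.608 for P2ry12, and from -2.33 to -1.14 and 0.000267 to 0.608 for Gpr34.

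The order of the groups was the same within each batch of the cell table, which equals the replicate number. In batch 1, P2ry12 had 1820.4 CPM in the uninjured mouse and 568 and 574 CPM at 1 d, and in batch 2 it had 1525 and 1795 CPM in uninjured mice and 424 CPM at 1 d. Gpr34 had 737 CPM against 360.4 and 318 CPM in batch 1, and 1052 and 1289 CPM against 322 CPM in batch 2. This order follows the titles. The cell names give the uninjured WT mouse of batch 2 as uninjured cKO, and the uninjured cKO mouse as WT at 7 d. With the replicate block, which pairs mice of a batch, P2ry12 had -1.75 (adjusted p = 0.0412) and Gpr34 had -1.67 (adjusted p = 0.0431). With a term for the number series of the animals neither passed, at -1.77 (adjusted p = 0.0517) for P2ry12 and -1.62 (adjusted p = 0.0581) for Gpr34. The shallow libraries at 1 d (WT and cKO replicate 1) and the deep one (cKO replicate 2) lay on the same side of the uninjured mice for 8 of the 9 genes. The 4 mice of low depth include the WT mouse of 1 d and cKO 1 d replicate 1. Without them the fit compared only cKO replicate 2 at 1 d with uninjured cKO replicate 2. The log2 fold change was then -1.99 for P2ry12 and -1.91 for Gpr34, which cannot show the change over both genotypes.

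Other features of the same mice are given beside these values, and their part was not tested. Cluster 10 made up 14.1%, 41.8% and 42.1% of the cells of Clusters 6 and 10 in uninjured mice, 28.1%, 25.5% and 55.7% at 1 d and 28.9%, 47.5%, 30.4% and 42.4% at 7 d. By 14 d its share was 44.0%, 54.5%, 57.4% and 62.5%. The 16 macrophage markers summed to 369, 894 and 403 CPM in uninjured mice, 1940.5, 1651 and 794 CPM at 1 d, 4651, 3422, 3945 and 1273 CPM at 7 d and 3409, 2029, 2760 and 2765 CPM at 14 d, with Lyz2 at the highest mean level over mice. The 11 stress genes that dissociation can induce, with Junb at the highest mean level, summed to 345, 1359.6 and 1519 CPM in uninjured mice and 541, 646 and 816 CPM at 1 d. The 11 identity markers outside the set summed to 30539.8 to 38488 CPM in uninjured mice and 25022 to 29486 CPM at 1 d. Of the features in this paragraph, the identity markers alone did not overlap the uninjured mice at 1 d.

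At 7 d no member passed the test in edgeR (0 of 9, beside 9 of all genes or 0.0971%), 4 stood at an unadjusted p below 0.05, beside 764 of all genes, and DESeq2 called 0, beside 38. The 4 were Gpr34, Selplg, P2ry12 and Tmem119. Gpr34 had 497, 584, 512 and 723 CPM, against 737 to 1289 CPM in uninjured mice (log2 fold change -0.95, SE 0.29, adjusted p = 0.321). Selplg had 898, 913, 779 and 1360.2 CPM, against 1539.9 to 1917 CPM (log2 fold change -0.84, SE 0.30, adjusted p = 0.429). These were the 2 genes of 9 whose mice at 7 d all lay below the uninjured mice, as did 2.74% of the genes tested. In Cluster 6 alone, where no share over all genes was computed, this held for 0 of the 9. Over 26 alternatives the log2 fold change at 7 d ran from -1.10 to -0.37 for Gpr34 and from -1.03 to -0.56 for Selplg. For P2ry12 it ran from -1.15 to -0.53, and for Tmem119 from -1.07 to -0.33.

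P2ry12 at 7 d had 786, 1005, 838 and 1535 CPM, so that cKO replicate 2 reached the uninjured mice and the other 3 stayed below them (log2 fold change -0.81, SE 0.30, adjusted p = 0.457). Tmem119 had 339 to 662 CPM at 7 d, with a log2 fold change of -0.65 (SE 0.30, adjusted p = 0.581), or -1.01 without uninjured cKO replicate 2. The other 5 genes overlapped the uninjured mice, with medians at 7 d of 3149 CPM for Cx3cr1, 738 CPM for Siglech, 2221 CPM for Csf1r, 212 CPM for Sall1 and 802 CPM for Olfml3, where the fitted level was 91.1% or more of the uninjured level for each. The deepest mouse, cKO replicate 2, was the highest of the 4 mice at 7 d for 8 of the genes.

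At 14 d the receptors P2ry12 and Gpr34 were again the lowest relative to uninjured mice, without passing the test in edgeR. P2ry12 had 433, 805, 809 and 826 CPM, which is 40.5% of the uninjured level (log2 fold change -1.30, SE 0.30, adjusted p = 0.0555). Gpr34 had 349, 585, 531 and 455 CPM, or 44.1% (log2 fold change -1.18, SE 0.29, adjusted p = 0.0709). In both genes WT replicate 1 was the lowest of the 4, and no mouse reached the uninjured range. Cells of these mice had medians of 1.20%, 1.39%, 1.53% and 1.53% mitochondrial UMIs and 3808, 11636, 11422 and 6493 UMIs, against 3.58%, 2.64% and 3.39% and 2176.5, 1773 and 2182 UMIs in uninjured mice. The part of the mitochondrial share in the 14 d values was not tested. Selplg had 593, 959, 862 and 947 CPM (log2 fold change -1.03, SE 0.30, adjusted p = 0.153), and Tmem119 had 412, 427, 367 and 432 CPM, a narrow band below the lowest uninjured mouse (log2 fold change -0.81, SE 0.29, adjusted p = 0.296). Over 26 alternatives the log2 fold change at 14 d ran from -1.70 to -0.69 for P2ry12 and from -1.33 to -0.71 for Gpr34. For Selplg it ran from -1.32 to -0.49, and for Tmem119 from -1.01 to -0.18.

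These 4 genes were the members that did not overlap the uninjured mice at 14 d, beside 4.78% of the genes tested. In Cluster 6 alone, where no share over all genes was computed, 2 members did not overlap, P2ry12 and Selplg. Their medians there were 78.4% and 78.8% of the uninjured median, against 45.0% and 54.2% in Clusters 6 and 10. Gpr34 and Tmem119 overlapped in Cluster 6, at 69.1% and 91.7%, against 46.9% and 56.4%. Members called were 0 of 9 in edgeR, beside 41 of all genes (0.442%), with 4 at an unadjusted p below 0.05, beside 975 of all genes. DESeq2 called 3, namely P2ry12, Gpr34 and Selplg, beside 67 of all genes. Leaving out either cKO mouse of 7 d brought P2ry12 past the threshold (adjusted p = 0.0381 without replicate 1 and 0.0387 without replicate 2). A term for the number series of the animals, in which all mice of 14 d belong to the higher series, gave P2ry12 and Gpr34 an adjusted p of 0.0277 each. Over the 26 alternatives the adjusted p ran from 0.000605 to 0.680 for P2ry12 and from 0.00450 to 0.738 for Gpr34. The other 5 genes overlapped the uninjured mice, with medians of 3260.5 CPM for Cx3cr1, 613 CPM for Siglech, 2135 CPM for Csf1r, 189 CPM for Sall1 and 588 CPM for Olfml3.

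The median log2 fold change of all genes was 0.17 at 7 d and 0.18 at 14 d, so the members are also given against it. Their medians were -0.14 and -0.41, and -0.21 and -0.47 with size factors by the median ratio, under which the medians of all genes were 0.10 and 0.12. Whether any member differed between 1 d and the later time points was not tested. The change with injury was compared between genotypes, and no member passed that test in edgeR at any time point (smallest adjusted p = 0.827 at 1 d, with 518 of all genes at an unadjusted p below 0.05). DESeq2 was not run for it.

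**Figure D3:**
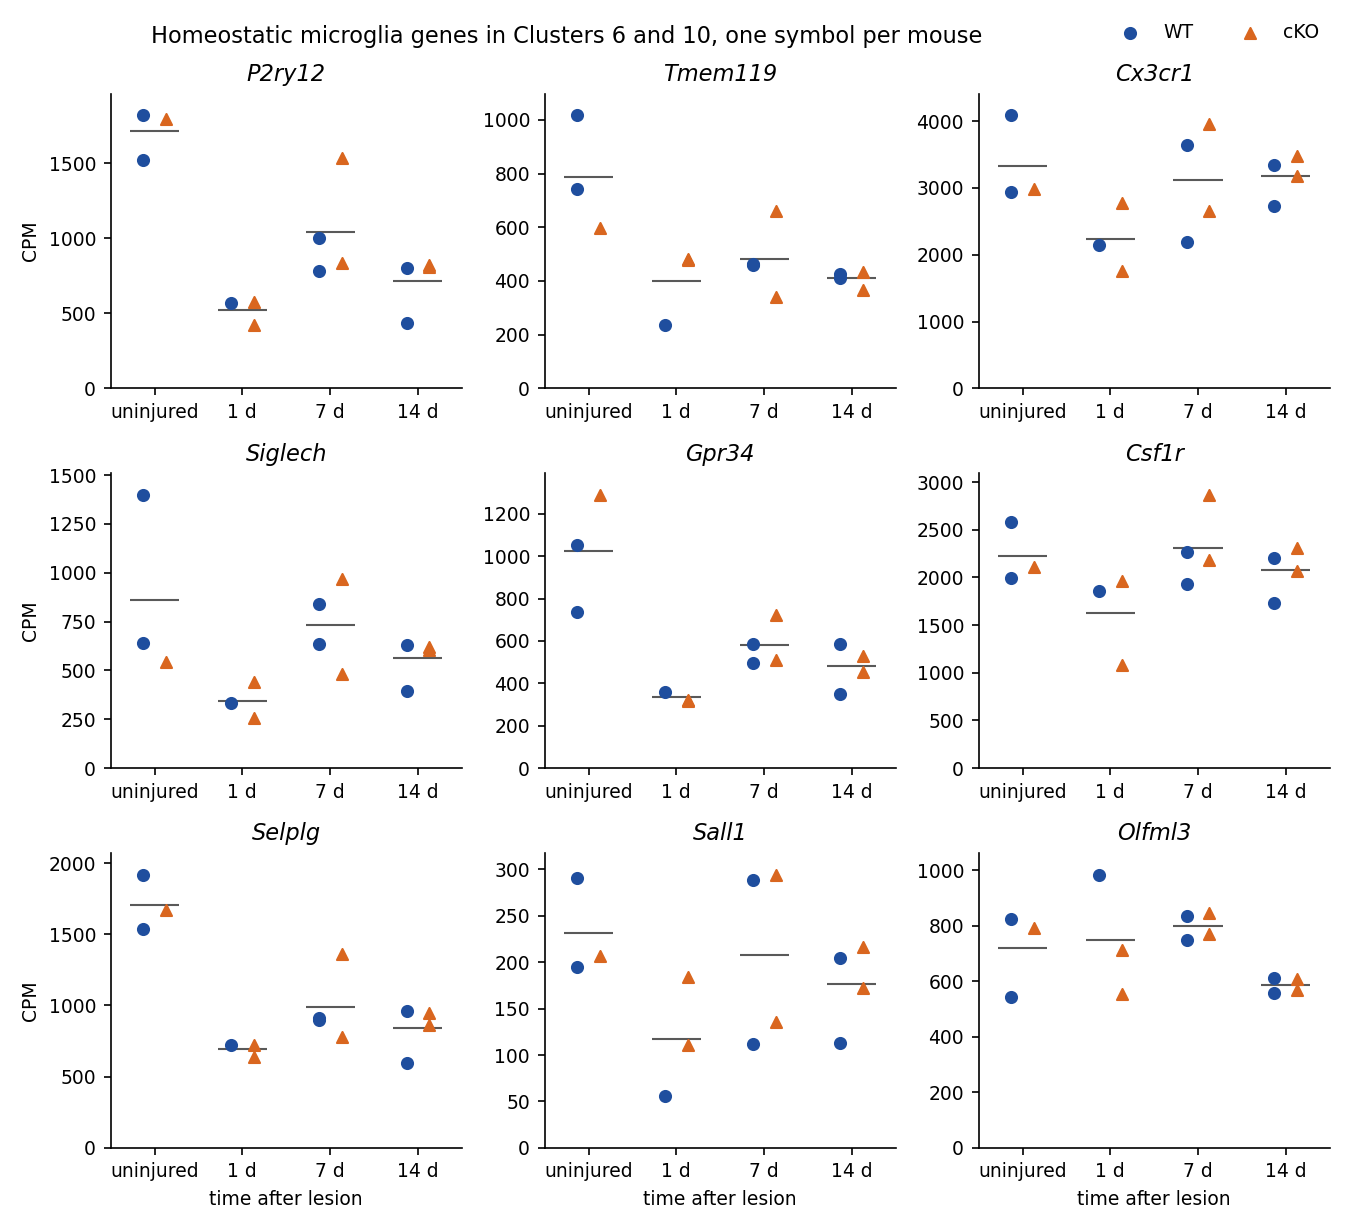
Levels in Clusters 6 and 10 (vertical axes, CPM) of the 9 genes in uninjured mice and by day post lesion (horizontal axes), with 1 symbol per mouse, circles for WT and triangles for cKO, and a bar at the mean. P2ry12 lies between 424 and 574 CPM at 1 d and between 1525 and 1820.4 CPM in uninjured mice, whereas Olfml3 overlaps at every time point.

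Cluster 6 alone was compared in the same way, since its cells carry the highest levels of the set and the share of Cluster 10 differed between mice. P2ry12 had 1927, 1720.2 and 2352 CPM in uninjured mice, 840.3, 824 and 744 CPM at 1 d, 1155, 1453, 1289 and 2073 CPM at 7 d and 712, 1534, 1634 and 1489 CPM at 14 d. The mice at 1 d were again the lowest group, and WT replicate 1 of 14 d was the lowest mouse. For the mean over the 3 time points its log2 fold change was -0.90 (SE 0.28, adjusted p = 0.460), against -0.99 (SE 0.27, adjusted p = 0.422) for Gpr34, -0.71 (SE 0.28, adjusted p = 0.627) for Selplg and -0.52 (SE 0.27, adjusted p = 0.687) for Tmem119. Without uninjured cKO replicate 2 Gpr34 had -0.63 and Tmem119 had -0.91, and without WT 1 d replicate 1 Tmem119 had -0.24. In edgeR 0 of 9 members and 0 of 7394 genes passed (0.0%), with 3 members and 559 of all genes at an unadjusted p below 0.05, and DESeq2 called 0 members and 0 genes. At 1 d alone, Cluster 6 gave P2ry12 a log2 fold change of -1.48 (adjusted p = 0.158) and Gpr34 one of -1.50 (adjusted p = 0.152), so that neither call was kept within this cluster. There, 6 of the 9 members stood at an unadjusted p below 0.05 at 1 d, beside 899 of 7394 genes. For 7 of the 9 the mice at 1 d did not overlap the uninjured mice. No share over all genes is given for such overlaps in Cluster 6.

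The cKO mice were compared with WT mice to see whether loss of Ryk in astrocytes changes these microglial transcripts. In Clusters 6 and 10, edgeR called 0 of 9 members and 0 of 9268 genes (0.0%) at 7 d, likewise at 14 d (0.0%), and for the mean over 1 d, 7 d and 14 d (0.0%). No member stood at an unadjusted p below 0.05 in any of the 3 comparisons, where 153, 138 and 348 of all genes did, and DESeq2 called 0 genes in each. P2ry12 had 786 and 1005 CPM in WT mice and 838 and 1535 CPM in cKO mice at 7 d, and the genotypes overlapped (log2 fold change 0.41, SE 0.39, adjusted p = 1.0; 0.68 without cKO 7 d replicate 1 and 0.09 without replicate 2). At 14 d it had 433 and 805 CPM in WT and 809 and 826 CPM in cKO mice (log2 fold change 0.26, SE 0.38, adjusted p = 1.0; 0.04 without WT 14 d replicate 1 and 0.51 without replicate 2), where both cKO mice lay just above the higher WT mouse.

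Over injury, log2 fold changes of cKO against WT ran from -0.20 for Olfml3 (SE 0.25) to 0.55 for Sall1 (SE 0.33), with 0.20 for P2ry12 (SE 0.25) and an adjusted p of 1.0 for all 9. Single mice moved these values. Sall1 had 0.09 without WT 1 d replicate 1 and 0.84 without WT 7 d replicate 2. Olfml3 had -0.06 without WT 1 d replicate 1, -0.11 and -0.30 without cKO 1 d replicates 1 and 2 and -0.13 without cKO 7 d replicate 2. P2ry12 had 0.33 without WT 1 d replicate 1, 0.12 without WT 14 d replicate 1 and 0.09 without cKO 7 d replicate 2. Ryk itself had 54.0 to 157 CPM in the astrocyte Clusters 2, 5 and 7 of 7 WT mice (median 108) and 23.0 to 123 CPM in 8 cKO mice (median 87.6), which overlapped. In Clusters 6 and 10 it had 12.9 to 43.7 CPM in WT and 9.89 to 34.1 CPM in cKO mice. How complete the deletion was cannot be read from these values.

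Other genes known from homeostatic microglia were described as a list of 30, of which 29 were tested. Their median log2 fold change was -0.90 at 1 d, -0.40 at 7 d and -0.48 at 14 d, and 28, 21 and 28 of them were negative. The medians of all genes were 0.02, 0.17 and 0.18 at these time points. Genes of the list that passed the test and were lower numbered 1, 0 and 1, beside 9, 0 and 4 of all 9268 genes. Slc2a5, a fructose transporter of microglia, was the member of this list that fell, with log2 fold changes of -2.44 at 1 d (adjusted p = 0.0381) and -2.04 at 14 d (adjusted p = 0.0106). It had 198, 120.2 and 219 CPM in uninjured mice, 83.2, 30.8 and 12.1 CPM at 1 d, and 50.04, 61.5, 40.9 and 33.0 CPM at 14 d.

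Of 16 ligands and regulators of the receptors, 13 were tested, with medians of -0.37, 0.17 and 0.08 at 1 d, 7 d and 14 d, and Csf1 was the gene that rose at each time point. Csf1, a ligand of Csf1r, had 2, 0 and 9 UMIs (7.76, 0 and 104 CPM) in uninjured mice and 236, 205 and 82.3 CPM at 1 d. At 7 d it had 233, 184, 148 and 162 CPM, and at 14 d it had 85.8, 263, 160.4 and 266 CPM. Its log2 fold changes were 2.78, 2.90 and 3.02 (adjusted p = 0.0403, 0.0351 and 0.0106). The uninjured cKO mouse, with 104 CPM, lay above 1 mouse of 1 d and 1 mouse of 14 d. The transcription factors Mef2c, Mef2a and Runx1, which had the highest mean levels of this list, did not pass the test at any time point. Mef2c, which acts in the microglial programme, had 999 to 1339 CPM in uninjured mice and 632 to 759 CPM at 1 d.

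Of the 22 damage-associated genes, 1, 3 and 5 rose at 1 d, 7 d and 14 d, beside 33, 9 and 37 of all 9268 genes. The 19 genes with more than 3 UMIs over the uninjured mice had medians of 0.67, 1.86 and 1.72. The filter on low counts kept the others for their levels after injury, so no median over all 22 is given. The medians of all genes were 0.02, 0.17 and 0.18. Lpl, a lipoprotein lipase, rose at each time point, from 0, 22.5 and 207 CPM in uninjured mice (0, 3 and 18 UMIs) to 1067, 810.2 and 499 CPM at 1 d. Its log2 fold change was 4.19 at 1 d, 3.52 at 7 d and 3.77 at 14 d (adjusted p = 0.00518, 0.0150 and 0.00651). Clec7a, a receptor for glucans, had 38.8, 105 and 104 CPM in uninjured mice and 397, 469, 538 and 456 CPM at 14 d (log2 fold change 2.48, adjusted p = 0.00737). Axl, a receptor of apoptotic cell clearance, passed at 14 d (2.65, adjusted p = 0.0367), and Cst7 and Igf1 passed at 7 d and 14 d from at most 2 UMIs per uninjured mouse. Apoe had the highest mean level of the list and did not pass, with 1319.7 to 6755 CPM in uninjured mice, 1980.1 to 3446 CPM at 1 d, 10615 to 46732 CPM at 7 d and 23490.0 to 52959.6 CPM at 14 d.

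Of the 16 macrophage markers, 9 were tested, and 3 of these had more than 3 UMIs over the uninjured mice. The 3 had medians of 1.45, 1.51 and 1.54 at 1 d, 7 d and 14 d. The others had at most 3 UMIs over the uninjured mice. The filter on low counts kept them for their levels after injury, so no median over all 9 is given. Ms4a6c rose at 1 d, from 31.1, 45.1 and 23.0 CPM to 180.2, 154 and 218 CPM (log2 fold change 2.57, adjusted p = 0.0217). Fn1, which encodes fibronectin, passed at 1 d and 14 d and had 0, 7.51 and 0 CPM in uninjured mice (0, 1 and 0 UMIs) against 541, 554 and 257 CPM at 1 d. The 11 identity markers had medians of -0.22, -0.12 and -0.18 with none called, the 11 stress genes had -1.05, 0.28 and 0.83 with none called, and none of the markers of neurons, oligodendrocytes, astrocytes, endothelium, pericytes and fibroblasts or neutrophils passed. The oligodendrocyte markers in these clusters summed to 1754, 2945 and 2382 CPM in uninjured mice and 937, 1346, 1032 and 1438 CPM at 14 d, without overlap. Their median log2 fold change was -1.01 at 14 d. At 1 d and 7 d they summed to 1386 to 2394 CPM. The astrocyte markers summed to 208 to 1265 CPM over uninjured and injured mice. The endothelial markers summed to 54.3, 60.1 and 149.6 CPM in uninjured mice and 374, 236 and 261 CPM at 1 d, and the neuron markers to 97.0, 135 and 149.6 CPM and 208, 164 and 298 CPM in the same mice. The part of such RNA in the changes at 1 d and at 14 d was not tested.

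The members followed each other over the 14 mice to different degrees. Pearson's r of the log2 levels was 0.953 for P2ry12 and Selplg, 0.923 for P2ry12 and Gpr34 and 0.898 for Selplg and Gpr34, while Sall1, Cx3cr1, Siglech and Csf1r had 0.659 to 0.861 with each other. Olfml3 stood aside, from -0.423 with Cx3cr1 to 0.227 with Gpr34. Genes most like the mean of the set over mice were Srgap2, Arhgap5, Gpr155, Prex1, Irgm2, St3gal6, Tmem170b, Dip2b, Rsrp1 and Gm10790, with r from 0.893 to 0.936 among 9259 genes. Srgap2, the first of them, regulates the actin cytoskeleton and had 1637 CPM in Cluster 6 and 520 CPM in Cluster 10 on average. By rank correlation 3 of these 10 stayed among the first 10. The mice share batches and differ in depth, and these values carry no test.

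Over the 17 clusters, the genes most like the set were Rasal3, Ptgs1, Ccr6, Gm2629, Gm15523, Hpgds, Fam167b, Il1a, P2ry13 and E230029C05Rik, with r from 0.975 to 0.988. Ptgs1, which encodes cyclooxygenase-1, had 407, 169 and 38.9 CPM in Clusters 6, 10 and 12. P2ry13, a purinergic receptor and neighbour in family to P2ry12, had 285, 80.7 and 15.7 CPM. By rank correlation 0 of these 10 stayed among the first 10.

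The RefSeq promoter table (GRCm38.p6) held windows of 250 bases for 5 of the 9 members, 7 windows in all, for P2ry12, Olfml3, Siglech, Sall1 and Cx3cr1. The windows of 3 members are shown because P2ry12 fell at 1 d and Siglech lay below the uninjured mice, while Olfml3 overlapped them, and capitals mark the core GGAA of ETS factors such as PU.1 on either strand (GGAA or TTCC). P2ry12 lies at chr3:59262986-59263235 on the minus strand, Siglech at chr7:55767934-55768183 on the plus strand and Olfml3 at chr3:103738002-103738251 on the minus strand.
P2ry12: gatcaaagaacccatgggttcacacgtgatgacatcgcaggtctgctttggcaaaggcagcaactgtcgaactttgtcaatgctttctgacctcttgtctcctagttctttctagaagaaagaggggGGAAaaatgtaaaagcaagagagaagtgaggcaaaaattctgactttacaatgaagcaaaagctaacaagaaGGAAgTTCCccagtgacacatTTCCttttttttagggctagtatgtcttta
Siglech: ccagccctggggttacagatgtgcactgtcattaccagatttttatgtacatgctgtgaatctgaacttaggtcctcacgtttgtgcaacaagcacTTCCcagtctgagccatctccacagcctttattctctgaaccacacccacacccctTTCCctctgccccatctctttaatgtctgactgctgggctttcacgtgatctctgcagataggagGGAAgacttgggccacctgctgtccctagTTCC
Olfml3: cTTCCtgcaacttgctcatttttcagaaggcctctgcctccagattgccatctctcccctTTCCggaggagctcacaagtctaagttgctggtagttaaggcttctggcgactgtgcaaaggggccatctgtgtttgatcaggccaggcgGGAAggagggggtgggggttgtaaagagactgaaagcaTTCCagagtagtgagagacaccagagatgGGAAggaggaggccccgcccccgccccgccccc
The core was found 4 times in P2ry12, 4 times in Siglech and 5 times in Olfml3. It was present in 6 of the 7 windows, and in 93.4% of 32851 windows of all genes, so its presence does not set the members apart. The longer ETS letters GAGGAAGT (2.44% of all windows), the CRE TGACGTCA (1.55%), the AP-1 letters TGANTCA (6.75%), the TATA box letters TATAAA (12.4%) and the MEF2 motif (0.140%), searched on both strands, were in 0 of the 7 windows.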

How the data were processed

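The deposited counts are raw UMIs per gene and cell, which the authors made with Cell Ranger and joined with Seurat, and the percent of mitochondrial UMIs per cell was also computed by the authors and used by them to filter cells. Other deposited columns (gene symbols, cell names, animal, condition, batch and cluster) are labels given by the authors. The cluster numbers were used as they stand, and no cell was removed. No doublet caller was run here, and the deposited cell table holds no doublet call.

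UMIs were summed per mouse over Clusters 6 and 10, or Cluster 6, for mice with at least 10 such cells. Genes with low counts were removed by filterByExpr, and edgeR 4.0.16 (R 4.3.3, limma 3.58.1; TMM scaling, robust quasi-likelihood test on contrasts of the 8 group means in 1 fit) gave p-values adjusted by Benjamini and Hochberg over all genes tested, with a threshold of 0.05. The test was tried on simulated data, on which no statement here rests. Summaries used Python 3.11.15, numpy 2.4.6, pandas 2.3.3, scipy 1.17.1 and matplotlib 3.10.9. The members and lists were chosen with earlier results of these data known.

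Alternatives were DESeq2 1.42.0, RLE size factors, no filter on low counts, a replicate block, the animal number series (below 10000 or not) as a term, conditions of the cell names, cells with at least 500 UMIs, at least 30 cells per mouse, WT mice alone and leaving out each mouse in turn. Cluster 6 alone, the 4 mice of low depth left out, and the mice with conflicting cell names left out were chosen after seeing the data. Residuals of mice that share a replicate number had a median correlation of 0.0464 over 15 pairs of groups in Clusters 6 and 10, above 0.1 in 6 pairs, and of 0.0220 in Cluster 6, above 0.1 in 4, so the block was kept as an alternative.

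Genes named besides the members are those of a list that passed the test in a comparison, otherwise up to 4 with the highest mean level, and the 10 genes most like the members over mice and over clusters. Mef2c, Mef2a, Runx1, Apoe and Lyz2, among the highest of their lists, are also named where other genes of the list passed, which was chosen after the values were seen. The lists were other homeostatic genes, ligands and regulators, damage-associated genes, dissociation and stress genes, and markers of microglial identity, macrophages, neurons, oligodendrocytes, astrocytes, endothelium, pericytes and fibroblasts, and neutrophils.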

Additional observations from a re-analysis of the deposited data

How the results depend on the processing

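The 9 members in 7 comparisons gave 63 log2 fold changes and 1602 values under alternatives. Of these, 1433 kept their direction and their side of the threshold, 24 no longer passed it, 14 newly passed it, and 131 changed sign. The changes of sign fell on 36 of the 63, each of size 0.41 or less as reported, and 0 of the 131 passed the test. The sign changes printed below are those of the values that the report gives, a choice made after the values were seen. The causes of the differences below were not tested.

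At 1 d, where 2 members and 42 genes were called and Olfml3 had -0.020, DESeq2 called 5 members and 103 genes, with 0.010 for Olfml3, and no filter on low counts gave 141 genes. The animal number series gave 0 members, 19 genes and 0.061 for Olfml3, the conditions of the cell names gave 0 members, 2 genes and 0.031, and WT mice alone gave 0 members, 11 genes and 0.32. Without the mice of low depth, 0 members and 2 genes were called. Without the mice with conflicting names there were 0 members, 22 genes and 0.75 for Olfml3, and in Cluster 6 alone there were 0 members, 2 genes and 0.24. Olfml3 had 0.0053 with RLE size factors and 0.015 with the replicate block. Leaving out the mice of low depth, or those with conflicting names, left a single uninjured mouse against a single mouse of 1 d. The counts of those fits do not measure the change over both genotypes.

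At 7 d, where 9 genes were called, DESeq2 called 38, no filter gave 76, the replicate block 24, the animal number series 21, the conditions of the cell names 1, WT mice alone 14 and Cluster 6 alone 0. At 14 d, where 0 members and 41 genes were called in edgeR (975 genes and 4 members at an unadjusted p below 0.05), DESeq2 called 3 members and 67 genes and the animal number series 2 members and 112 genes. There, no filter gave 172 genes, RLE size factors 26, the replicate block 63, the conditions of the cell names 17, cells with at least 500 UMIs 25 and Cluster 6 alone 0.

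For injury in Cluster 6, where 0 genes were called in edgeR (559 at an unadjusted p below 0.05, 0 in DESeq2), no filter gave 13, RLE size factors 1, the mice of low depth left out 2 and the mice with conflicting names left out 11. For cKO against WT, where edgeR called 0 genes, no filter gave 1 at 7 d, 2 at 14 d and 2 over injury, and the mice of low depth left out gave 1, 1 and 2. The mice with conflicting names left out gave 1 at 14 d. With the conditions of the cell names P2ry12 went from 0.41 to -0.32 at 7 d and from 0.20 to -0.16 over injury, and with cells of at least 500 UMIs Olfml3 went from -0.20 to 0.14 over injury. WT mice alone cannot give a comparison of genotypes. Without the mice with conflicting names, a single uninjured mouse was left, and a single mouse of each genotype at 14 d.

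Leaving out each mouse in turn gave 0 to 3 members, 0 to 76 genes and -0.33 to 0.31 for Olfml3 at 1 d, 2 to 46 genes at 7 d, 0 to 1 members and 15 to 74 genes at 14 d, 0 to 2 genes in Cluster 6, and 0 to 1 and 0 to 5 genes for cKO against WT at 7 d and 14 d. At 1 d the 0 genes came without WT 1 d replicate 1 and the 76 without either WT mouse of 14 d. At 7 d the 46 came without cKO 7 d replicate 2, and the 2 without WT 7 d replicate 1 or uninjured cKO replicate 2. At 14 d the 74 came without WT 14 d replicate 1 and the 15 without uninjured cKO replicate 2.

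In Cluster 10 against Cluster 6, the median over the 9 genes of the median log2 ratio was -1.29, and -1.54 with 10 CPM added, -1.30 with at least 30 cells and -1.49 from means of single cells. Thinned to 500 UMIs, cells of Clusters 6, 10 and 12 had 3.79, 1.86 and 0.425 members. Depth limits Sall1 most, with 4 UMIs in WT 1 d replicate 1.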

Other observations

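Siglech in Cluster 12 came mainly from a pair of cells. Of 147 Siglech UMIs in 14 of the 288 cells of this cluster, 136 were in cKO 7 d replicate 2 and 127 in 2 cells of that mouse, with 76 and 51 UMIs, while no other cell had more than 5. These 2 cells had 0 UMIs of P2ry12, Tmem119, Cx3cr1, Gpr34, Csf1r, Sall1, Olfml3 and C1qa, and 13 and 20 UMIs of Selplg. The same cells had 81 and 68 UMIs of Tcf4, 47 and 53 of Irf8, 34 and 28 of Bst2, 51 and 37 of Runx2, 15 and 5 of Ccr9 and 4 and 28 of Ly6d, genes that were chosen after the values were seen.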
